A study of Mus musculus with 10 samples.

Results

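The 5 libraries of untreated cells, of 10 in the experiment, were compared at baseline: 3 clones of MLL-AF9-i139 cells (labelled clones 1, 2 and 3) against 2 cultures of MLL-AF9-ieGFP cells. They were chosen as every library without doxycycline (DOX), and the other 5 libraries are the same clones with DOX. The cells are bone marrow cells of C57BL/6 mice, enriched for hematopoietic stem and progenitor cells (HSPCs), into which a retrovirus carried the MLL-AF9 fusion oncogene. MLL-AF9-i139 cells also carry tetR-KRAB, a repressor that DOX releases from its DNA sites, and a lentiviral pCW construct with miR-139 behind a DOX-inducible promoter, and each of their clones grew from a picked colony. MLL-AF9-ieGFP cells have eGFP, a fluorescent protein, in place of miR-139. The protocol names no separate steps for them, so whether they carry tetR-KRAB and how their clone was picked is not given in the sources used here. The cells were kept in medium with SCF, GM-CSF, IL-6 and IL-3. The labels give 48 h and 72 h for the untreated MLL-AF9-ieGFP cultures, which come from 1 clone, and no time for the untreated MLL-AF9-i139 cultures. DOX was used at 5 µg/mL, for 48 h in clones 1 and 2, for 72 h in clone 3, and for both times in MLL-AF9-ieGFP. The comparison is therefore one of 3 clones with 1 clone, in which the construct and the clone cannot be told apart. Its p-values pool the spread between the 3 MLL-AF9-i139 clones with that between 2 cultures of 1 clone. They take these cultures as independent samples, and so do not measure the spread between clones alone.

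MLL-AF9 joins the DNA-binding part of MLL to AF9, a partner that recruits the machinery of transcript elongation, and keeps progenitor genes such as the HOXA cluster and its partner Meis1 active. Retroviral MLL-AF9 in HSPCs gives leukemia cells that resemble granulocyte-monocyte progenitors. Clones can share viral insertions or differ in them, which was not examined here. A construct that is silenced by tetR-KRAB can leak, which means that it makes some of its product without DOX. A microRNA such as miR-139 pairs through its seed, positions 2 to 8, with sites in the 3′ untranslated region (UTR) of messenger RNAs and lowers their level or translation.

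Both arms of the hairpin are shown with the seed in capitals, since a leak would have to act through these bases (RefSeq, GRCm38.p6, chromosome 7, plus strand, from 101475382 to 101475403 and from 101475418 to 101475439).
mmu-miR-139-5p: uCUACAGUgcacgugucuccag
mmu-miR-139-3p: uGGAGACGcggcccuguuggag

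The best match to the miR-139-5p seed in the 3′ UTR is shown for Eif4g2 and Ptprt, which the study names as targets, and for Jun and Notch1, targets known from other tissues. The bases that pair with the seed, and the A that follows them where there is one, are in capitals.
Eif4g2: caacactgaatACTGTAGAgatgcacttt
Ptprt: taaaaagacccACTGTAGgatgacacagc
Jun: ctgcaatagagACTGTAGAttgcttctgt
Notch1: ctacatgcaaaACTGTAGgtaatgaaaat

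Library totals ranged from 35133308 to 47089725 counts over 52550 genes, so that 3 counts corresponded to between 0.0637 and 0.0854 CPM (counts per 1000000 counts of a library, after scaling). The share of a library in its 10 most abundant genes was 13.64% to 16.8%, of which the non-coding RNA Gm26917 held 10.3% to 13.3%. Mitochondrial genes took between 0.897% and 1.132%. No pair of libraries agreed within sampling noise, and each was counted as 1 sample. Genes that lie inside another gene and share no exon were nearly always at 0 in these counts. Among protein-coding genes, 199 of 203 (98.0%) with at least 95% of their body inside a gene on the same strand, and no exon shared, had 0 counts in the 5 libraries. The share was 447 of 453 (98.7%) for genes inside one on the opposite strand, and 3428 of 11690 (29.3%) for genes that overlap no other. With nested genes that share exons included, 1384 of 1603 (86.3%) were at 0. A 0 for such a nested gene says nothing about its expression. This touches Itgam, which encodes CD11b, as well as Hoxa3, Hoxa5, Hoxa6, Irf8, Pde2a and Mir139 itself.

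The untreated cells carried transcripts of the surface receptors and granule proteins of granulocyte-monocyte progenitors in all 5 libraries, but not Cd34. In what follows, values are CPM in the order of clones 1, 2 and 3, then of the MLL-AF9-ieGFP cultures at 48 h and 72 h. Kit, the receptor for SCF, had 139, 142, 147, 137 and 149.8 CPM. Fcgr3, an Fc receptor behind the CD16/32 stain, had 89.2, 96.3, 79.3, 93.6 and 95.7 CPM. Of the Ly6 genes behind the GR-1 stain, Ly6c2 had 342, 429, 412, 349 and 376 CPM and Ly6g had between 1.00 and 1.46. The T cell receptor subunit gene Cd3e had 0 counts in 4 libraries and 0.0291 CPM in the MLL-AF9-ieGFP culture at 72 h. The other CD3 genes were detected in every library, Cd3d with between 0.159 and 0.321 CPM and Cd3g with between 0.0205 and 0.0907. The study describes the cells by stains for c-Kit, GR-1, CD16/32 and CD11b and by a lack of CD3. Transcripts behind the first 3 stains were thus present, those of CD3 were at most at 0.321 CPM, and Itgam, behind CD11b, could not be read.

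Stem and progenitor markers were split. Cd34, a surface marker of hematopoietic progenitors, had 0, 1, 0, 1 and 1 counts, while Cd93 had between 210.5 and 243 CPM and Spn (CD43) between 283 and 333. The median over the 14 genes of this list was 0.583 CPM per kb, and Procr and Slamf1, which mark stem cells, were at most at 0.041 CPM.

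Genes of granulocyte-monocyte progenitors and of the primary granules, which these cells and promyelocytes fill, were abundant. The list joins granule proteins with transcription factors and receptors of these progenitors. Per kb of exons, the median over 12 genes of this list was 77.7 CPM, and the highest were Elane (neutrophil elastase) with 1420 CPM per kb and Ctsg (cathepsin G) with 887. Elane had 1089, 1308 and 2009 CPM in the clones and 1078 and 1500 in MLL-AF9-ieGFP. Mpo, which encodes myeloperoxidase, had 414, 612, 581, 519 and 645 CPM. The median over 13 genes of neutrophil maturation was 1.32 CPM per kb and that over 14 monocyte and macrophage genes 0.254, although S100a9, S100a8 and Ly6c2 reached 153, 108 and 139 CPM per kb. Lyz2 (lysozyme), Csf1r and Adgre1 (F4/80) had at most 9.53, 1.54 and 1.97 CPM.

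The MLL-AF9 program was present in every clone. Hoxa9, of the HOXA cluster, had 119, 106, 141, 97.4 and 116 CPM. Meis1, its DNA-binding partner, had 101, 93.1, 112, 83.5 and 82.8 CPM, and the corresponding values of Hoxa10 were 113, 133, 122, 103 and 104. For both genes each MLL-AF9-i139 clone lay above either MLL-AF9-ieGFP culture, as for 8.64% of all genes tested, whereas the ranges of Hoxa9 overlapped. Myb had between 380.2 and 484 CPM and Cdk6 between 1429 and 1768. Eya1, Zfp521 and Mecom, which are high in some MLL-AF9 leukemias of stem cell origin, were at most at 0.594 CPM. Of 16 genes of this list that could be tested, 14 had a log2 fold change above 0 (MLL-AF9-i139 over MLL-AF9-ieGFP) and the median was 0.20, where all 18634 tested genes had a median of 0.01 with 9876 above 0. None of the 16 was called between the constructs by edgeR or DESeq2, and 3 had an unadjusted p under 0.05 (edgeR). Over all genes tested these shares were 0.059%, 0.445% and 3.14%.

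**Figure D1:**
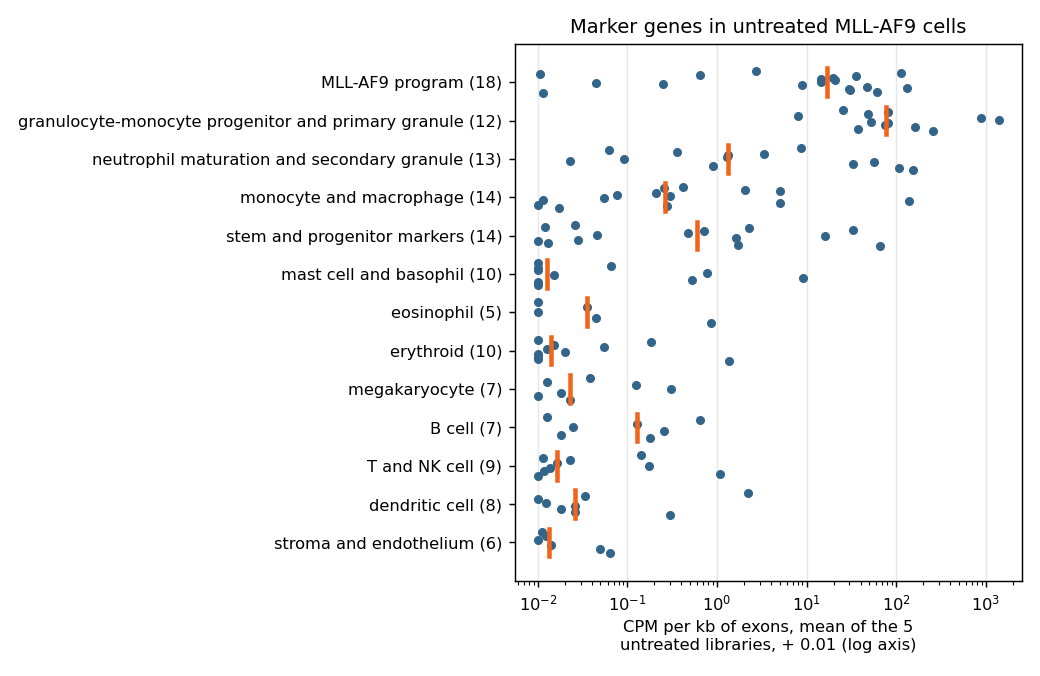
Each point is 1 gene, placed at its CPM per kb of exons averaged over the 5 untreated libraries plus 0.01, on a log axis, and the orange bar is the median of the list (number of genes not nested in another gene in brackets). Genes of granulocyte-monocyte progenitors and primary granules (median 77.7) and the MLL-AF9 program (16.9) stand far to the right of the lists of mast, eosinophil, erythroid, megakaryocyte, lymphoid, dendritic and stromal genes (medians from 0.00263 to 0.117).

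Markers of other cell types were at or near 0. Summed over the list, the erythroid genes reached 2.77 CPM at most, B cell genes 2.44, T and NK cell genes 5.72, megakaryocyte genes 2.72, and genes of stroma and endothelium 0.699. Most of the erythroid sum was Klf1, with between 1.90 and 2.42 CPM, while Car1 was at 0 in every library. The mast cell and basophil list summed to between 13.8 and 19.7 CPM, most of it Mcpt8, a basophil protease, and Hdc, which makes histamine. Its defining members Fcer1a, Cma1, Tpsb2 and Prss34 were at 0 in the 5 libraries. Among genes of the Y chromosome, Kdm5d and Eif2s3y were at 0 in all 5 libraries, and Ddx3y and Uty reached at most 0.391 and 0.471 CPM.

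The difference between the constructs without DOX was tested with edgeR's quasi-likelihood test. Of 18634 genes, 11 (0.059%) had an adjusted p under 0.05, 3 of them higher in MLL-AF9-i139 (0.0161%) and 8 lower (0.0429%). Without adjustment, 586 genes (3.14%) were under 0.05, and the 3 and the 2 libraries did not overlap for 3093 genes (16.6%; 8.64% with every MLL-AF9-i139 library higher and 7.96% with every one lower). DESeq2 called 83 genes (0.445%), among them all 11. The count was 14, 7 and 63 without clone 1, 2 or 3, and 2 and 5 without the MLL-AF9-ieGFP culture at 48 h or 72 h. Ptprcap and Plekha7 passed in each of these 5 fits.

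For the genes lower in MLL-AF9-i139, the fold change was widest, among those named by rule, for Ppic, which encodes cyclophilin C. Ppic (ENSMUSG00000024538, chromosome 18 from 53406332 to 53418115 of GRCm38) had 0.369, 1.34 and 1.83 CPM in the MLL-AF9-i139 clones and 34.8 and 34.3 in MLL-AF9-ieGFP, a log2 fold change of -4.90 (SE 0.43, adjusted p = 0.00572, edgeR). With DOX it had 0.397, 0.865 and 1.91 against 34.8 and 34.6. Plekha7, a protein of the zonula adherens, had 14.5, 11.6 and 14.1 CPM against 43.6 and 45.4 (log2 fold change -1.73, SE 0.13, adjusted p = 0.00234, edgeR). Ptprcap, which binds CD45, had 4.22, 3.85 and 4.02 CPM against 17.9 and 19.7 (-2.22, SE 0.16, adjusted p = 0.00234, edgeR), but 100% of its exons overlap those of other genes, so its counts are uncertain. Stfa1, a stefin that inhibits cysteine proteases and belongs to a cluster of near-identical genes, had 185, 226 and 169 CPM against 419.6 and 417 (-1.11, SE 0.12, adjusted p = 0.0144, edgeR). With DOX the clones had 441, 699 and 198 CPM of Stfa1 against 377 and 394, which overlap, whereas Plekha7 and Ptprcap stayed lower in each clone. The call of Ppic was lost without clone 2 and without the MLL-AF9-ieGFP culture at 48 h, and that of Stfa1 without clone 1 and without either MLL-AF9-ieGFP culture, with fold changes between -5.36 and -4.46 for Ppic and between -1.25 and -1.03 for Stfa1.

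The genes higher in MLL-AF9-i139 were low in absolute terms. Fggy, a carbohydrate kinase, had 7.88, 4.87 and 5.34 CPM against 0.565 and 0.670 (log2 fold change 3.29, SE 0.32, adjusted p = 0.00895, edgeR). Map7d2, a microtubule-associated protein (ENSMUSG00000041020, chromosome X from 159414572 to 159498757), had 3.24, 2.95 and 3.48 CPM against 0.239 and 0.291 (3.60, SE 0.31, adjusted p = 0.00572, edgeR). Cchcr1, a coiled-coil protein of centrosomes and P-bodies, had 6.49, 6.94 and 5.13 CPM against 1.09 and 0.845 (2.67, SE 0.27, adjusted p = 0.00976, edgeR). The fold changes of these 3 genes stayed between 2.5 and 3.73 when any 1 library was left out, although the calls of Fggy and Map7d2 were lost without either MLL-AF9-ieGFP culture and that of Cchcr1 without any library but clone 3. The other 4 called genes were outside the rule for named genes and are given after their values were seen. Gm18340 had 0 counts in each MLL-AF9-i139 library and 0.913 and 1.92 CPM in MLL-AF9-ieGFP, and its neighbour Ighv8-10, a variable segment of the immunoglobulin heavy chain, had at most 0.0205 CPM against 1.15 and 1.28. Ccdc90b and Echdc2 had at most 0.0227 and 0.458 CPM in MLL-AF9-i139 and at least 0.729 and 3.70 in MLL-AF9-ieGFP.

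Among genes of neutrophil maturation, S100a8 and S100a9 had the lowest p-values between the constructs, and none of the list passed the adjusted threshold of edgeR. The summed level of 14 genes was 345, 238 and 214 CPM in the clones and 419.7 and 521 in MLL-AF9-ieGFP. This separation rested on S100a8 and S100a9, since the sums without them were 217, 143 and 137 CPM against 204 and 263, which overlap. Of 13 genes tested, 12 had a log2 fold change below 0, with a median of -0.46 (-0.34 without S100a8 and S100a9, and 0.01 over all genes tested), and 5 had an unadjusted p under 0.05. The 2 groups overlapped for 8 of the 13, namely Ltf, Camp, Ngp, Mmp8, Mmp9, Cxcr2, Chil3 and Olfm4, and did not for Lcn2, S100a8, S100a9, Padi4 and Ly6g. DESeq2 called 4 of them, S100a8, S100a9, Lcn2 and Padi4. Over all genes tested, 3.14% had an unadjusted p under 0.05, 16.6% did not overlap and DESeq2 called 0.445%. Ly6g, with between 42 and 67 counts in a library, had a log2 fold change of -0.28 (SE 0.28, unadjusted p = 0.339, edgeR). In bulk libraries, fewer cells of a type and less RNA per cell cannot be told apart.

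S100a8 and S100a9 encode calprotectin, a calcium-binding complex of neutrophils. S100a8 had 62.2, 47.4 and 37.7 CPM in the clones against 101 and 126 in MLL-AF9-ieGFP (log2 fold change -1.21, SE 0.18, adjusted p = 0.124, edgeR, and 3.64e-06, DESeq2). S100a9 had 66.5, 47.8 and 39.1 CPM against 115 and 132 (-1.27, SE 0.19, adjusted p = 0.110, edgeR, and 1.2e-06, DESeq2). For both genes the culture at 72 h was higher than that at 48 h, and clone 3 was the lowest. Padi4, which citrullinates histones in neutrophils, had 2.48, 2.11 and 3.79 CPM against 5.89 and 7.34. Lcn2 (lipocalin-2 of the secondary granules) had 8.44, 6.32 and 5.80 CPM against 11.2 and 12.3. With DOX this order was not kept by Lcn2, which had 34.0, 26.4 and 11.5 CPM in the clones against 10.7 and 11. S100a9 remained at 67.1, 53.8 and 32.8 CPM with DOX against 98.5 and 136. The median without clone 1 was -0.77, over 1.5 times that of all 5 libraries, and -0.32 without clone 3.

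**Figure D2:**
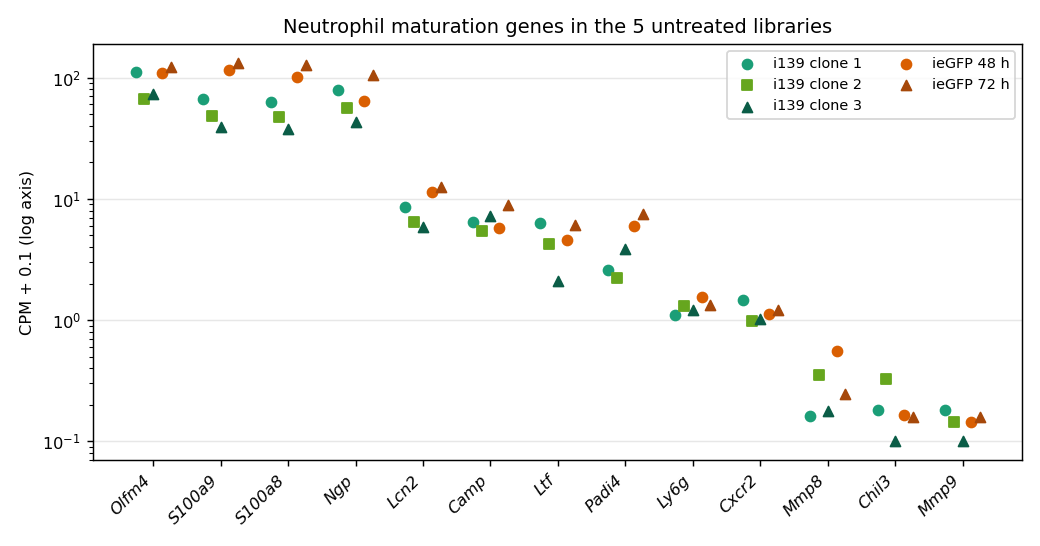
CPM plus 0.1 on a log axis for the 13 neutrophil maturation genes that were tested, with 1 point per untreated library (3 MLL-AF9-i139 clones in greens, 2 MLL-AF9-ieGFP cultures in oranges). S100a8 and S100a9 lie between 37.7 and 66.5 in the clones and between 101 and 132 in MLL-AF9-ieGFP, while Camp, Cxcr2 and Ltf overlap.

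Other gene groups that bear on the state of the cells had medians near that of all genes. The 21 cell cycle genes had a median log2 fold change of -0.06 with 14 below 0, and the 17 inhibitors of cyclin-dependent kinases and p53 targets one of -0.08. Mki67, a marker of cycling cells, had 734, 715, 775, 675 and 720.1 CPM. The 16 interferon-stimulated genes tested had a median of 0.08 and their summed levels overlapped, from 61 to 67.6 CPM in the clones and from 59.6 to 67.6 in MLL-AF9-ieGFP. The genes that process microRNAs or regulate the Mir139 locus had a median of -0.03 over 15 genes. Among these, Drosha had between 179.8 and 199.5 CPM, Ezh2 between 136 and 162, and Polr2m between 37.4 and 44.7. No gene of these 4 groups was called in the contrast of the constructs by edgeR or DESeq2 (0.059% and 0.445% of all genes tested were). Of these groups 1 gene, Ccnd2, had an unadjusted p under 0.05 (edgeR), as did 3.14% of all genes tested.

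The MLL-AF9-i139 clones lay as far from each other as from the MLL-AF9-ieGFP clone. Over 8664 genes with a mean log2 CPM of at least 3, the SD of the log2 difference between 2 libraries was 0.241 between clones 1 and 2, 0.295 between clones 1 and 3, and 0.292 between clones 2 and 3. Against the MLL-AF9-ieGFP culture at 48 h it was 0.224, 0.181 and 0.300 for clones 1, 2 and 3. Against the culture at 72 h it was 0.269, 0.258 and 0.270. Clone 2 was thus nearer to the culture at 48 h than to either of the other MLL-AF9-i139 clones, whereas at 72 h it was further from MLL-AF9-ieGFP than from clone 1. Clone 3 was the furthest of the clones from the culture at 48 h, and level with clone 1 in its distance from that at 72 h. For comparison, the cultures at 48 h and 72 h of the MLL-AF9-ieGFP clone differed by 0.231, and with and without DOX they differed by 0.114 at 48 h and 0.151 at 72 h. Genes at least 2-fold apart numbered 41, 107 and 75 between clones 1 and 2, 1 and 3, and 2 and 3, 28 between the untreated MLL-AF9-ieGFP cultures, and 1 and 5 between these cultures and theirs with DOX.

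Across these 8664 genes, the difference of clone 3 from the mean of clones 1 and 2 ran along the difference between the MLL-AF9-ieGFP cultures at 72 h and 48 h (Pearson's r 0.365, Spearman's rho 0.552). The values were -0.132 and -0.163 for clone 1 and -0.304 and -0.405 for clone 2, each against the mean of the other clones. These describe genes, which are not independent replicates. With DOX, clone 3 was kept for 72 h and the others for 48 h, and whether the untreated cultures followed the same times is not given by the labels. Clone 3 and culture time cannot be told apart in these libraries.

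A test of clone with 4 levels asked which genes differed between clones by more than the 2 untreated MLL-AF9-ieGFP cultures differed. With edgeR, 143 of 18634 genes (0.767%) had an adjusted p under 0.05 and 1150 an unadjusted one. The spread rests on 1 residual degree of freedom. With RLE size factors in place of TMM the count was 11, each among the 143, and the degrees of freedom borrowed from other genes were 4.36 in place of 7.34. DESeq2 called 237 genes, of which 126 were among the 143. Without clone 1, 2 or 3 it was 5, 4 and 0 (edgeR, with 730, 985 and 659 genes at an unadjusted p under 0.05).

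These 143 genes differed by a median of 2.55 on the log2 scale between the highest and the lowest clone, 140 of them at least 2-fold and 50 at least 8-fold. Clone 3 was the highest in 61, clone 1 in 48, MLL-AF9-ieGFP in 24 and clone 2 in 10. The libraries with DOX, which the test did not use, kept this order in large part. The same clone was the highest with DOX for 126 of the 143 (88.1%), against 42.9% of all genes tested and 49.0% of those with an average log2 CPM of at least 3. The lowest clone was the same for 96 (67.1%), against 42.8% and 51.5%. In the libraries with DOX, 36.2% of genes were called by the same test, including all of the 143.

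Some of the genes named by rule were near 0 in 1 or 2 clones and well above it in the others. Enah, an actin regulator of the Ena/VASP family (ENSMUSG00000022995, chromosome 1 from 181896384 to 182019990), had 125, 1.77 and 15.9 CPM in clones 1, 2 and 3 and 72.1 and 78.7 in MLL-AF9-ieGFP (adjusted p = 3.96e-05, edgeR). Aldh1a7, an aldehyde dehydrogenase with a close paralog (chromosome 19 from 20692953 to 20727562), had 64.7, 20.8 and 0.305 CPM against 42.9 and 40.6 (adjusted p = 4.72e-05, edgeR), a range of 212-fold. Sbf2, a myotubularin-related protein, had 33.1, 0.499 and 0.432 CPM against 13.2 and 12.4 (adjusted p = 0.000109, edgeR). Enah was thus nearly off in clone 2, Aldh1a7 in clone 3, and Sbf2 in clones 2 and 3. With DOX the values in the clones were 132, 1.68 and 14.8 for Enah, 67.8, 20.4 and 0.559 for Aldh1a7, and 14.5, 0.356 and 0.483 for Sbf2. MLL-AF9-ieGFP with DOX had 78.15 and 87.07 CPM of Enah, 46.21 and 41.15 of Aldh1a7, and 16.07 and 16.37 of Sbf2. Clone 1 was thus not the highest for Sbf2 with DOX.

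Some of the named genes encode regulators of transcription, chromatin or the cell cycle. Tox, an HMG-box factor known from T cell development, had 108, 57.0 and 5.72 CPM in the clones and 182 and 147 in MLL-AF9-ieGFP (adjusted p = 9.28e-05, edgeR). Dnmt3a, a DNA methyltransferase that is often mutated in acute myeloid leukemia, had 4.87, 16.7 and 35.2 CPM against 16 and 16.2 (adjusted p = 0.00497, edgeR). Ccnd2 (cyclin D2) had 50.2, 21.8 and 79.9 CPM against 87.1 and 104 (adjusted p = 0.00331, edgeR), the lowest in clone 2. Cdkn2a, whose products INK4A and ARF restrain the cell cycle and stabilize p53, had 26.6, 20.9 and 5.67 CPM against 10.1 and 12.9 (adjusted p = 0.0224, edgeR), and Mef2c, a transcription factor that MLL fusions activate, 8.81, 4.58 and 0.686 CPM against 2.72 and 2.10 (adjusted p = 0.0224, edgeR). Clone 3 was the lowest of the 4 for Cdkn2a and Mef2c and the highest for Dnmt3a. Smarca2, an ATPase of SWI/SNF complexes, had 23.1, 26.2 and 9.43 CPM against 12.4 and 9.53. The only member of the MLL-AF9 program among the 143 was Mef2c, and the surface or granule genes Cd48 (4.89, 5.55 and 1.07 against 1.20 and 0.816 CPM) and Ms4a3 (117, 83.1 and 52.6 against 46.6 and 57.6) were also called.

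Peg10, Nebl, Tcam1, Stra6 and P2rx3 were highest in clone 3. Peg10, an imprinted gene of retrotransposon origin (chromosome 6 from 4747306 to 4760517), had 152, 108 and 582 CPM in the clones and 24.1 and 18.8 in MLL-AF9-ieGFP (adjusted p = 3.96e-05, edgeR). Nebl, a nebulin relative, had 132, 73.3 and 345 CPM against 64.4 and 73.9, and Tcam1, a testis adhesion molecule, 11.3, 10.2 and 76.7 against 11 and 10.3 (adjusted p = 0.000273 for each, edgeR). Stra6, the receptor of retinol-binding protein, and P2rx3, an ATP-gated channel, had 33.5 and 26.8 CPM in clone 3 and at most 8.41 and 7.32 in the others. Without DOX, the genes highest in clone 1 with the widest gap were Sbf2, Filip1 (49.6 CPM, and between 10.5 and 19.6 elsewhere), Plekha5 (25.1, and between 6.13 and 7.35) and Dock3 (37.9, and between 8.43 and 15.1). Those low in clone 2, besides Enah, were Mbp with 5.12 CPM (at least 11.8 elsewhere) and the protease Bace1 with 21.8 (at least 51.1 elsewhere). Nrp2, a co-receptor of semaphorins, and Shtn1 were at most at 8.04 and 3.26 CPM in MLL-AF9-ieGFP and at least at 13 and 9.34 in the clones. Alcam (CD166), Il1rl2 (the IL-36 receptor) and Me1 (malic enzyme) were highest in clone 1, at 24.8, 23.4 and 21.7 CPM, and lowest in clone 3, at 4.12, 4.86 and 4.65. Igfbp4 and Zfp516 were lowest in clone 1, at 110.2 and 35.5 CPM, and highest in clone 3, at 244 and 86.5. Slco3a1, an organic anion transporter, and B4galt6, which makes lactosylceramide, had 5.08 and 16.4 CPM in clone 3 and at least 15 and 31.7 in the other clones.

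**Figure D3:**
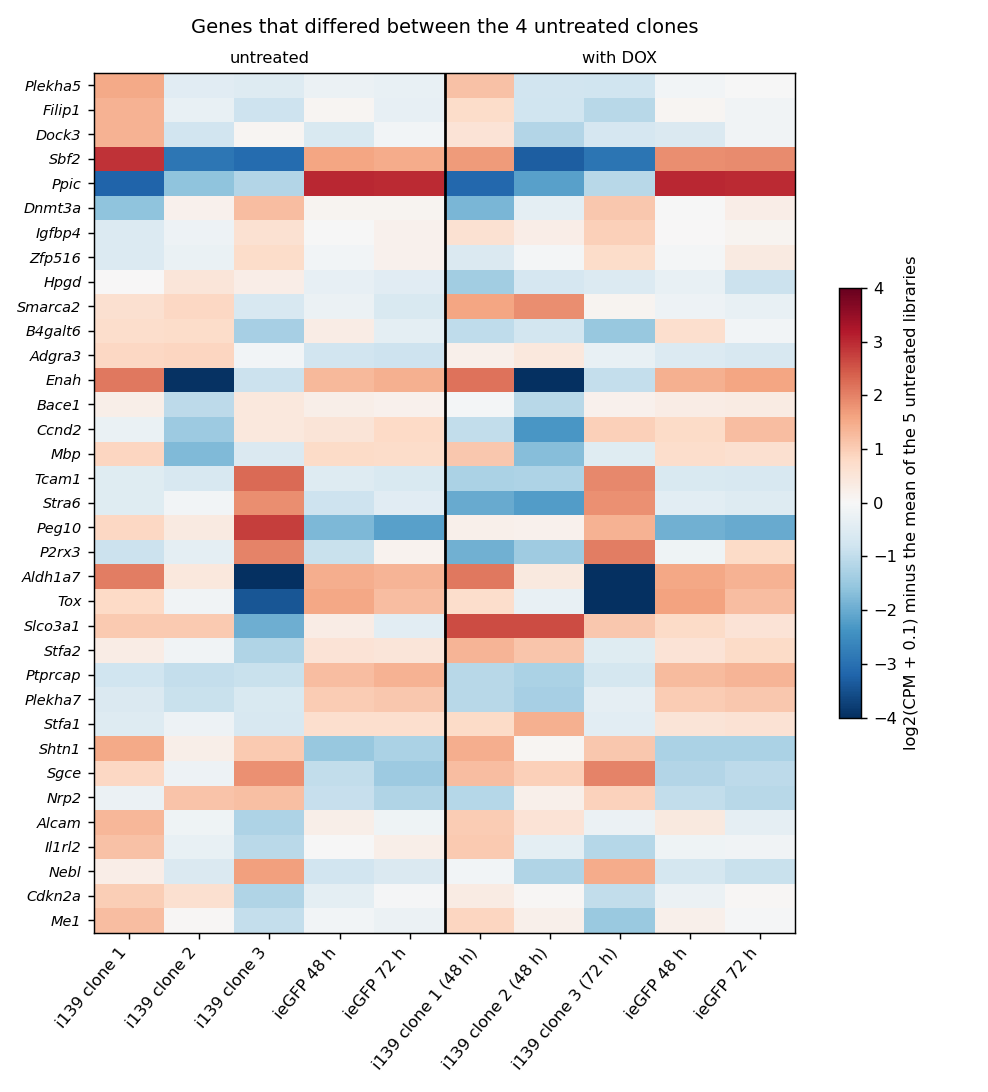
Rows are the genes named by the rule for the clone test, and columns the 5 untreated libraries (left of the line) and the 5 with DOX (right). Colour is log2(CPM + 0.1) minus the mean of the 5 untreated libraries, shown from -4 to 4 with values beyond at the end of the scale; Enah in clone 2 and Aldh1a7 and Tox in clone 3 are dark blue with and without DOX, and Peg10 is red in clone 3.

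Some clone genes lay beside each other. Of 142 genes with a position, 31 formed 17 pairs of neighbours at most 500 kb apart, and in 14 of the pairs both genes were highest in the same clone (lowest in 11). Of all pairs of the 142 genes, 32.3% had the same highest clone and 27.0% the same lowest, and 3 of the 17 pairs lie in 1 stefin cluster. Peg10 and Sgce lie 0.1 kb apart, head to head, and are imprinted together. Sgce had 13, 6.32 and 26.0 CPM in the clones and 3.61 and 2.59 in MLL-AF9-ieGFP, the same order as Peg10. On chromosome 16, the stefin genes Gm5483, Stfa1, BC100530 and Stfa2 were each highest in MLL-AF9-ieGFP and lowest in clone 3, and their similar sequences leave the split of reads between them uncertain. On chromosome 4, Hook1, 40.3 kb from Fggy, had 1.74, 8.11 and 16.6 CPM against 0.13 and 0.0583. Tgfbr3 and Evi5 on chromosome 5 were both highest in clone 3, with 81.4 and 225 CPM. The neighbours other than Peg10, Sgce, Fggy, Stfa1 and Stfa2 were named after their values were seen. No whole chromosome stood apart, and the median log2 difference of a clone from the others stayed between -0.080 and 0.068 on each of the autosomes and X.

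The counts hold no direct readout of the construct's product. Mir139 (chromosome 7 from 101475376 to 101475443) had 0 counts in all 10 libraries, with DOX too, and lies 100% inside other genes. Pde2a, its host, lies 99.99% inside another gene and had 1 count, in clone 3 with DOX. The enclosing gene Gm45837, whose reads can come from either, had 5.14, 3.36 and 4.80 CPM in the untreated clones and 3.87 and 3.64 in MLL-AF9-ieGFP, which overlap, and 5.99, 5.47, 5.13, 3.60 and 4.03 CPM with DOX. Leak could thus be read only from genes that miR-139 would act on.

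The median of genes with a miR-139-5p site was not below that of other genes in the untreated clones. An annotated 3′ UTR was found for 13801 of the 18634 genes tested (74.1%). An 8-base match to the miR-139-5p seed (ACTGTAGA on the transcript strand) was held by 611 of these (4.43%) and a 7-base match (ACTGTAG or CTGTAGA, which overlap it) by 2525 more (18.3%). The median log2 fold change between the constructs was 0.042 for the 8-base genes (392 above 0 and 219 below), 0.017 for the 7-base genes and -0.002 for the 10665 without a match. Against MLL-AF9-ieGFP, the 8-base genes had medians of 0.039, 0.007 and 0.039 in clones 1, 2 and 3, and the MLL-AF9-ieGFP culture at 72 h minus that at 48 h gave -0.007. For miR-139-3p (CGTCTCCA, or CGTCTCC and GTCTCCA), the medians were 0.014 for 187 genes with an 8-base match, 0.014 for 2205 with a 7-base match and 0.002 for 11409 with none. None of the 611 and 187 genes was called by edgeR, with 19 and 3 at an unadjusted p under 0.05, and DESeq2 called 1 and 0. Of all 13801 genes with a 3′ UTR, edgeR called only 9, with 468 at an unadjusted p under 0.05, and DESeq2 called 77. With DOX, the 8-base genes of miR-139-5p had a median of 0.013 and those without a match 0.008, so this measure was near 0 with the construct switched on as well.

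**Figure D4:**
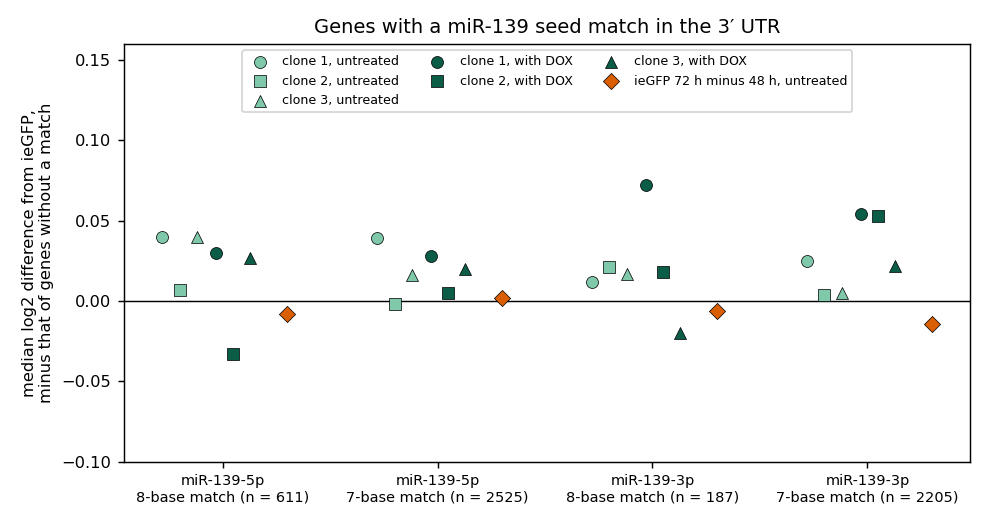
Points are the median log2 difference of each MLL-AF9-i139 clone from the mean of the MLL-AF9-ieGFP cultures for genes with a seed match, minus the median of genes without one; light symbols are untreated, dark symbols with DOX, and diamonds the untreated MLL-AF9-ieGFP cultures at 72 h minus 48 h. All values lie between -0.033 and 0.072, and no untreated clone is below -0.002.

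The targets that the study names were at control level or higher without DOX. Eif4g2, a translation factor whose site is shown above, had 1216, 1249 and 1384 CPM in the clones and 1236 and 1388 in MLL-AF9-ieGFP (log2 fold change -0.03, SE 0.10). With DOX it had 540.2, 515 and 822 CPM against 1211 and 1289. Hpgd, which degrades prostaglandin E2, had 436, 603 and 521 CPM untreated against 343 and 318 (0.66, SE 0.13, adjusted p = 0.290, edgeR, and 0.00283, DESeq2). Its longest annotated 3′ UTR has no 7-base or 8-base seed match. The study reports Hpgd as a direct target, from a luciferase reporter that carried a predicted miR-139 motif of its 3′ UTR. Ptprt, a receptor tyrosine phosphatase, had 8.21, 8.30 and 13.2 CPM against 3.78 and 4.72 (1.22, SE 0.26, adjusted p = 0.334, edgeR, and 0.00238, DESeq2). Hpgd and Ptprt were both higher in each untreated clone than in either MLL-AF9-ieGFP culture, an order that 8.64% of all genes tested had. With DOX the clones had 163, 269 and 295 CPM of Hpgd against 348 and 239, a log2 fold change of -0.28 (SE 0.26) between the constructs.

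Of 12 genes published as miR-139-5p targets in other tissues, 7 had a log2 fold change below 0 and 5 above, with a median of -0.12, and none was called by edgeR or DESeq2. Notch1 had 188, 156 and 129 CPM in the untreated clones against 210.5 and 197 (-0.37, SE 0.14, unadjusted p = 0.0256, edgeR, adjusted p = 1), the lowest in clone 3. Zeb2, with 4 matches of 7 bases, had 328, 269 and 296 CPM against 254 and 207 (0.37, SE 0.12). These are the only 2 of the 12 with an unadjusted p under 0.05 (3.14% of all genes tested), and they differ in direction. With DOX, Notch1 had 634, 573 and 190.0 CPM in the clones against 191 and 208.

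Genes that differ between the constructs with DOX were then read without it. In the 5 libraries with DOX, 19 of 18574 genes (0.102%) were called, 13 higher in MLL-AF9-i139 (0.0700%) and 6 lower (0.0323%). Of the 13, 10 were higher in every untreated clone than in both untreated MLL-AF9-ieGFP cultures, against 8.64% of all genes. Their median untreated log2 fold change was 1.02, with 12 above 0, against 3.15 with DOX. The same clones supply both values, and 2 of the 13, Fggy and Map7d2, were called without DOX. The median stayed between 0.77 and 1.14 with any 1 library left out. The call of these 13 genes itself depends on single libraries. In both directions together, the contrast with DOX gave 19 genes, and 13 without clone 1 (9 higher and 4 lower). It gave 5776 genes without clone 3 and 0 without clone 2 (edgeR, the latter with 1934 at an unadjusted p under 0.05).

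Other than Fggy, Map7d2 and members of the lists, the genes of this set are outside the rule for named genes and were chosen after their values were seen. Gpc1 (glypican-1, a heparan sulfate proteoglycan) had 4.73, 5.39 and 9.48 CPM in the untreated clones against 1.54 and 0.962, and 17.6, 19.0 and 19.7 with DOX against 1.63 and 0.952. Its untreated log2 fold change was 2.37 (SE 0.38, adjusted p = 0.124, edgeR, and 5.18e-07, DESeq2). The untreated clones were thus above MLL-AF9-ieGFP and below themselves with DOX, and this order held for 8 of the 13 genes. The 13 were chosen by their values with DOX, which favours lower values without it. In 11 of them each clone was higher with DOX than without. The order is therefore no separate sign of a leak, and its share over all genes is not given here. Dock9, an activator of CDC42, had 42.6, 43.3 and 62.6 CPM against 26.4 and 22.4, and with DOX 84.9, 82.0 and 97.4 against 25.8 and 25.0. Serpine2 (protease nexin-1) had 8.34, 9.77 and 10.7 CPM against 4.91 and 5.71, and with DOX 16.7, 19.9 and 20.1 against 5.89 and 6.04. Map7d2 went from 3.24, 2.95 and 3.48 to 9.86, 6.43 and 6.76 CPM with DOX, and stayed under 0.3 in MLL-AF9-ieGFP. Fggy did not go further in any clone, with 7.18, 4.25 and 5.05 CPM with DOX.

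Of the 13 genes, 3 did not lie above both MLL-AF9-ieGFP cultures without DOX, Ssbp2, Muc13 and Gm29642. Ssbp2, a partner of LDB1 complexes, had 38.6, 30.4 and 31.6 CPM in the untreated clones against 34.5 and 28.7, and 578, 479 and 294 with DOX against 51.1 and 40.6. In a fit of 4 groups over the 10 libraries it was the only 1 of 20269 genes (0.00493%) whose difference between the constructs itself differed with and without DOX (interaction 3.22 on the log2 scale, adjusted p = 0.0322, edgeR), with 1859 genes at an unadjusted p under 0.05. That fit left out that the same clones and cultures supply the libraries with and without DOX. With a replicate block for each clone or culture, a fit added after seeing the data, 38 genes were called (0.187%), 33 of them with a larger difference with DOX. They hold 3 of the 13, Ssbp2 (3.17, SE 0.20, adjusted p = 0.000455, edgeR), Serpinb9g (3.09, SE 0.42, adjusted p = 0.0293, edgeR) and Gm29642 (4.46, SE 0.42, adjusted p = 0.00469, edgeR), while Gpc1 had 1.54 (SE 0.32, adjusted p = 0.0851, edgeR). Serpinb9g, of a family of similar serpins, had 0.799, 0.408 and 0.381 CPM untreated against 0.283 and 0.146, and 26.9, 18.2 and 14.1 with DOX. Its untreated values were above MLL-AF9-ieGFP, but rest on 39, 18 and 15 counts in the clones and 13 and 5 in MLL-AF9-ieGFP. Muc13, a membrane mucin, had 19.6, 19.6 and 58.6 CPM untreated against 21 and 21.9, so that clone 3 alone stood out, and 201, 104 and 146 with DOX. Plekhg5 had 5.06 CPM in untreated clone 3 and 1.52 in each of clones 1 and 2, against 0.696 and 0.845. Clone 3 was the highest of the 3 clones for 8 of the 13 genes without DOX and for 3 with DOX.

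**Figure D5:**
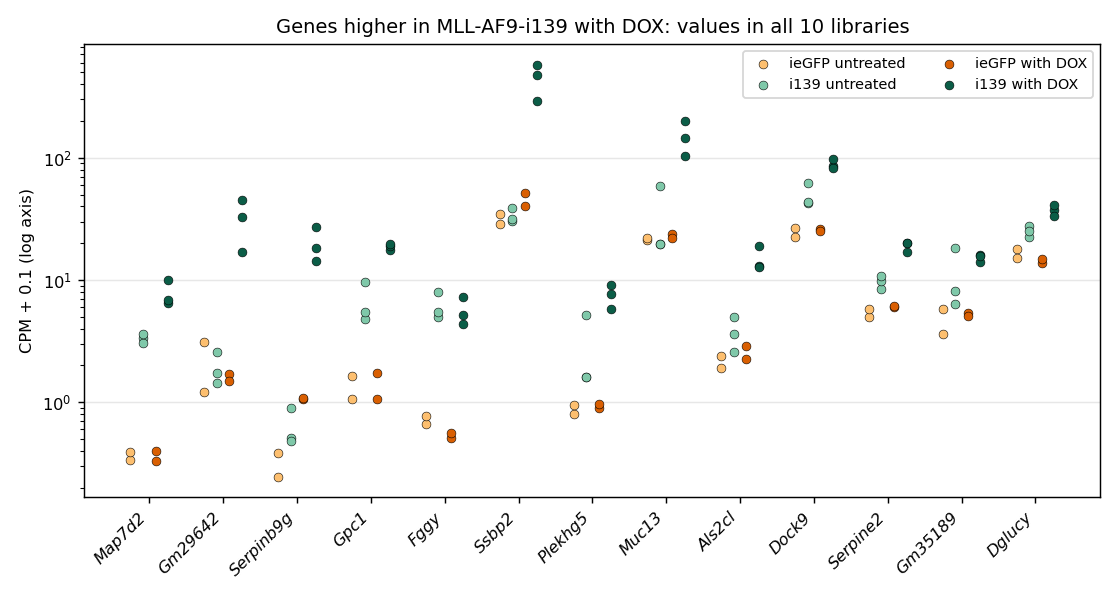
CPM plus 0.1 on a log axis for the 13 genes higher in the MLL-AF9-i139 clones than in both MLL-AF9-ieGFP cultures with DOX, with 1 point per library of the 4 groups. For Gpc1, Dock9, Serpine2 and Map7d2 the untreated clones (light green) lie above both untreated MLL-AF9-ieGFP cultures (light orange) and below the same clones with DOX (dark green), while for Ssbp2 they overlap with MLL-AF9-ieGFP.

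A fit of 4 groups over all 10 libraries called more genes with DOX, 341 higher (1.68% of 20269) and 258 lower (1.27%). Of the 340 higher genes that were tested untreated, 266 (78.2%) were above 0 without DOX, where 53% of all genes were, and their median log2 fold change was 0.13 against 1.24 with DOX. The median in clones 1, 2 and 3 was 0.16, 0.10 and 0.18, and -0.03 between the MLL-AF9-ieGFP cultures at 72 h and 48 h. Of the 258 lower genes, 234 were below 0 without DOX, with a median of -0.13 against -0.66 with DOX and of -0.18, -0.06 and -0.14 in the clones. Since the clones with DOX and without are the same, a lasting difference between the clones and a leak of the construct cannot be told apart here, and no library of a second MLL-AF9-ieGFP clone was analysed here. All 6 lower genes of the first fit were lower in every untreated clone as well, with a median of -5.33 without DOX and -5.36 with it. They include Ppic, Ptprcap and Slc27a2, a fatty acid transporter with 2.79, 0.975 and 1.02 CPM untreated against 6.07 and 9.01.

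Genes named for their response to DOX within the MLL-AF9-i139 clones showed no common shift at baseline. The 20 genes of this list, which was chosen on these libraries, had a median untreated log2 fold change of 0.00 between the constructs, 10 above 0 and 10 below, and none was called by edgeR or DESeq2. The cell cycle inhibitor Cdkn1a (p21) had 52.2, 43.1 and 43.1 CPM in the untreated clones against 42.5 and 45.8, and with DOX 192, 179 and 63.1 against 43.5 and 45.8. Il1rn, the antagonist of the interleukin-1 receptor, had 4.2, 3.1 and 1.8 CPM untreated against 3.89 and 4.05, and with DOX 154, 129.9 and 22.1. Ypel3 had between 2.47 and 3.32 CPM in the 5 untreated libraries and 38.8, 36.1 and 4.57 in the clones with DOX. Adgrg1 was lower in every untreated clone than in MLL-AF9-ieGFP, with 4.08, 4.76 and 4.63 CPM against 6.50 and 6.21, and had 107, 116 and 15.0 with DOX. The response of clone 3 was the smallest for each of these 4 genes.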

How the data were processed

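Counts per gene from RNA sequencing of 10 libraries were used. Per the labels and the methods, total RNA was depleted of ribosomal RNA, and the authors aligned reads to GRCm38 with STAR 2.5.3e and counted with featureCounts 1.6.0. The counts were deposited raw, with no normalization or filter. The strand setting is not given in the sources used here. The table holds 14 further columns of per-sample values, which were not used. Gene positions and 3′ UTRs were taken from GENCODE (GRCm38), in a release after the authors' own. For a UTR, the longest annotated was searched on the transcript strand.

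Genes whose counts summed to 10 or more in the fitted libraries were tested with edgeR 4.0.16 (R 4.3.3), TMM, the quasi-likelihood test and Benjamini-Hochberg adjustment. Per the labels, libraries with and without DOX share clone numbers. Their times match in MLL-AF9-ieGFP, while none is given for the untreated MLL-AF9-i139 cultures. A further fit took each clone or culture as a block. DESeq2 1.42.0, listed as 1.22.2 in the submitters' processing notes, was an alternative. CPM were scaled by TMM over the 5 untreated libraries or, with DOX, over all 10, and log2 CPM used a prior count of 2. Python 3.11.15, pandas 2.3.3, numpy 2.4.6 and scipy 1.17.1 were used, and the fits were tested on simulated data. Counting error alone limits values of few counts.

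The comparisons, gene lists and tests were chosen with earlier results of these data known. Members of the lists were named freely. For the contrast, the rule named up to 10 genes per direction with an adjusted p under 0.05, a 2-fold change, an average log2 CPM of at least 1 and no overlap. For the clone test it named up to 4 genes per clone and direction by the gap to the nearest clone, and 5 by range over the MLL-AF9-i139 clones, at an average log2 CPM of at least 3. Genes with provisional symbols were left out. One gene named by the study is not reported here.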

Additional observations from a re-analysis of the deposited data

Results flagged for a closer look

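In a fit of 4 groups, Ssbp2 was the one gene whose difference between MLL-AF9-i139 and MLL-AF9-ieGFP differed between untreated cells and cells with DOX. The difference was 0.08 (SE 0.14) on the log2 scale without DOX and 3.30 (SE 0.32) with it, and the interaction of 3.22 had an adjusted p of 0.0322 (edgeR). With a replicate block for each clone or culture it was 3.17 (SE 0.20, adjusted p = 0.000455, edgeR), and 38 genes were called. All 3 clones were higher with DOX, at 578, 479 and 294 CPM, than without, at 38.6, 30.4 and 31.6 CPM. The exons of Ssbp2 overlap those of other genes over 22.1% of their length.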

How the results depend on the processing

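No paired analysis was possible because the untreated groups are different clones and a shared number does not link them. Libraries with and without DOX come from the same clones or cultures, and a paired fit with a replicate block for each moved the 1 interaction to 38, an alternative added after seeing the data. The 11 genes called between the untreated constructs became 83 with DESeq2, 256 with a filter of at least 1 count in total, 7 with at least 10 counts in each library, 4 with the MLL-AF9-ieGFP libraries summed to 1, and from 2 to 63 with 1 library left out, where the 63 were without clone 3. The 143 clone genes became 237 with DESeq2, 11 with RLE size factors, 490 with at least 1 count in total, and from 0 to 5 with 1 clone left out. Leaving out an MLL-AF9-ieGFP library leaves no residual degree of freedom for this test, and it was not run. With DOX, the 19 genes became 935 with DESeq2, 286 and 2 with the same filters, and, in alternatives chosen after seeing the data, 599 with 4 groups over all 10 libraries, 0 with summed libraries, and from 0 to 5776 with 1 library left out. The 6727 clone genes with DOX became 3577 with DESeq2. The 1 interaction became 0 with at least 10 counts in each library (edgeR, 1452 at an unadjusted p under 0.05), an alternative added after seeing the data. For miR-139-3p, the shift of 8-base genes from those without a match (0.012) was 0.018 over any annotated UTR and from 0.008 to 0.044 with 1 library left out, and that of 7-base genes (0.012) from 0.007 to 0.035. No named gene reversed. Of the 11 contrast genes, 7 lost their call with summed libraries, and of the 35 clone genes named by rule, 27 with RLE size factors. The cause was not tested. The low number of clones, 1 of them without miR-139, limits every comparison.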
